A study of Mus musculus with 104 samples.

Results

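The hypothalamus of young CBA mice was compared with that of young BALB mice, both inbred laboratory strains. The comparison took every array labelled as hypothalamus of these strains at 2 to 3 months, which gave 7 CBA and 7 BALB arrays of the 104 samples in the series. All 14 mice were male, and each array held Cy3-labelled RNA from whole hypothalamus, hybridized in 1 colour to an Agilent mouse array of 60-base probes. The labels name no treatment and no difference other than strain. The arrays of a strain are biological replicates by the series' design text, and every p-value measures the spread between these arrays.

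The 2 strains were not measured under the same conditions. The CBA arrays were of another array design than the BALB arrays, were read with a later version of the scanner software and lay on 5 slides. The BALB arrays lay on 4 other slides, and 0 slides held both strains. Strain, design, slide and software therefore cannot be told apart by any fit, and the CBA mice belong to a cohort that the submitters added to the series as unpublished data. Only the 41174 probes found on both designs were used. The BALB arrays were brighter (the ratio of the median 75th percentiles was 2.17), and quantile normalization over the 14 arrays was used to put them on one scale. BALB array 1 stood apart from its group. On it 90.1% of the probes were well above background, against 61.8% to 71.3% on the other 6 BALB arrays and 56.1% to 68.1% on the CBA arrays, and its median correlation with its group was 0.948, against 0.987 to 0.990 for the other 6.

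Levels are given as log2 intensity after quantile normalization, as the lowest, median and highest of the 7 arrays of a strain. Differences are on the same scale, CBA minus BALB, with the standard error (SE) and the Benjamini-Hochberg adjusted p of the limma fit. A gene was called when B, the log odds that a probe differs, was above 0 for any of its probes. A gene named below is given by its brightest probe. Of 19311 genes tested, 7349 were called higher in CBA (38.1%) and 5949 higher in BALB (30.8%), so a call by itself was the rule and not the exception. More weight was given to 2 smaller classes. Large differences were those with B above 0, a log2 difference of at least 2 and no overlap between the arrays of the strains, and numbered 1132 genes higher in CBA (5.86%) and 1622 higher in BALB (8.4%). A gene symbol of their own was held by 368 of the 1132 and 1226 of the 1622 (all genes, 13850 of 19311). On-off genes, which were not tested, were well above background on all 7 arrays of one strain and on 0 of 7 of the other, and numbered 45 in CBA (0.233%) and 331 in BALB (1.71%). The counts of large differences depended on the background correction and the filter. With normexp correction they were 267 and 659, among probes well above background on all arrays 656 and 1015, and with the deposited table of processed values 345 and 737. Levels did not overlap between the strains for 12591 of the 19311 genes tested. Those without overlap and higher in CBA made up 36.2% of all genes tested, and those higher in BALB 29%.

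Other arrays of the series allow the design and the strain to be set side by side. Frontal cortex of young female BALB mice was measured on the CBA design (4 arrays), and hypothalamus of young male C57BL6 mice on the BALB design (5 arrays). Across 27862 probes, the difference of CBA from BALB hypothalamus had a Pearson correlation of 0.548 with the difference of BALB frontal cortex from C57BL6 hypothalamus. That pair shares the 2 designs but none of the arrays, and also differs in region, sex, strain and software. The C57BL6 arrays were read with a later version of the scanner software than the young CBA and BALB hypothalamus arrays. On them 79.3% to 85.3% of the probes were well above background. Of the 1622 genes with a large difference towards BALB, the level in BALB frontal cortex was nearer to CBA than to BALB hypothalamus for 1396 (86.1%, against 69.9% of all genes), and the level in C57BL6 hypothalamus was nearer to BALB for 1499 (92.4%, against 74.3% of all genes). Of the 1132 genes with a large difference towards CBA, BALB frontal cortex was nearer to CBA for 912 (80.6%), and C57BL6 hypothalamus was nearer to BALB for 527 (46.6%). These shares are descriptions, and the part of the array design in any single difference was not tested.

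The difference also moved with the base composition of the probe. Among probes with 35% to 40% G and C bases the median difference was -0.41, and among those with 55% and over it was 0.91. Each array was therefore also centred on the median of the probes with the same number of G and C bases, an alternative chosen after the data had been seen, and called GC centring below. After GC centring, 6401 genes were called higher in CBA and 6301 higher in BALB, and 882 of the 1132 and 1138 of the 1622 large differences were still large, with 0 turned in direction.

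**Figure D1:**
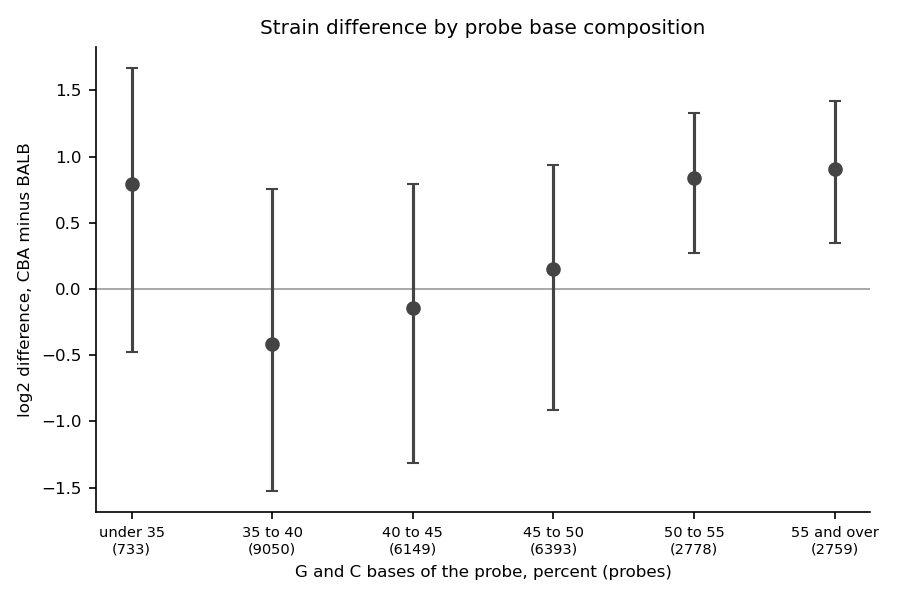
Difference between CBA and BALB hypothalamus (log2, vertical axis) for the 27862 probes tested, grouped by the percent of G and C bases in the probe. Points are medians and bars run from the lower to the upper quartile. The median was -0.41 at 35% to 40%, rose to 0.91 at 55% and over, and was 0.79 for the 733 probes under 35%.

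The hypothalamus holds many small groups of neurons, each defined by the peptide it releases, that control feeding, body temperature, sleep, water balance and the pituitary gland. Inbred strains differ in the sequence of their genes, in the major histocompatibility complex (MHC, the genes that present antigens to T cells) more than almost anywhere else, and in their families of interferon-induced genes, which restrain viruses and other microbes inside cells. In RNA from whole tissue, fewer cells of a type and less RNA in each cell cannot be told apart. Whether the strains differ in sequence under a probe was not tested.

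The probes of the genes that the results turn on are shown first. For each, the first 30 of its 60 bases are given from 5′ to 3′ as the array design lists them, with G and C in capitals. The first 4 are on-off genes, Fos and Tap2 stand for the immediate early genes and the MHC, and Gad2 and Grin2d contrast a probe poor in G and C with one rich in them.
Gbp3: ttGttaaaaaGaGCtCttGttaaaaCGCaC
Ifit1: CaCaCattaCtGGaaaGataCtaaGaaCCa
Npvf: aCaGatGaGttCatGatGCCtCattttCaC
Ypel2: taGaaCattttCataCaCatatCtCattGt
Fos: GGaCtttattttCCaGtaGataGaaatCaa
Tap2: aGGGGaaatGaCtaatGGaataaaCaCaGa
Gad2: tttGtaatCaCCtCaCtCatCaaaaCtGtt
Grin2d: CtCaCCGGGCCCtCGCGCCaCGCGCGCCGC
In the design's build, mm7 (NCBI35), the whole probes lie at chr3:142466047-142466106 on the plus strand for Gbp3, chr19:34350610-34350669 plus for Ifit1, chr6:50617503-50617562 minus for Npvf, chr11:87062162-87062221 minus for Ypel2, chr12:83478431-83478490 plus for Fos and chr7:42009107-42009166 minus for Grin2d. G and C made up 35% of the whole probe for Gbp3, Ifit1, Ypel2 and Fos, 43.3% for Npvf, 45% for Tap2, 38.3% for Gad2 and 81.7% for Grin2d. No annotation of this build was used here, so the exon or UTR that a probe lies in is not given.

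The genes that were on in BALB and off in CBA included a group of interferon-induced genes. Of 34 tested genes of the list of interferon-induced genes, 17 were called higher in BALB (all genes, 30.8%) and 1 higher in CBA (all genes, 38.1%), and the median difference was -1.11 (all genes, 0.25). After GC centring the counts were 20 and 1 and the median was -1.06 (all genes, 0.06). The mean level of the 34 genes lay between 6.30 and 6.67 on the CBA arrays and between 7.76 and 8.29 on the BALB arrays, with no overlap. BALB array 1 was the highest of these, and without it the median difference was -1.01. The median level of the listed genes was 6.74 (all genes, 9.10), so they were dimmer than the genes they are set against. This list and those below were chosen with earlier results of these data known.

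Gbp3, a guanylate-binding protein that acts on microbes inside the cell, was at 2.94, 3.07 and 3.84 in CBA and at 8.59, 8.90 and 9.82 in BALB, which is at least 25.2-fold higher in BALB. Such a bound sets the mean of the strain with signal against, on each array of the other strain, the higher of the probe's own value and the lowest value well above background. Its neighbours on chromosome 3 followed it. Gbp2b, which was not on the list (probe at chr3:142511872-142511931, plus strand) was at 2.15, 2.28 and 2.44 in CBA and at 6.58, 7.04 and 7.48 in BALB, at least 6.65-fold higher. Gbp2 (chr3:142530694-142530753, plus strand) was at 3.86, 4.45 and 5.22 in CBA, where it was well above background on 4 of 7 arrays, and at 7.92, 8.50 and 8.93 in BALB (difference -3.90 ± 0.21 SE, adjusted p = 2.09e-10). None of the 3 genes overlapped between the strains (without overlap and higher in BALB, 29% of all genes tested).

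Ifit1, which binds foreign RNA, was at 2.02, 2.19 and 3.32 in CBA and at 7.15, 7.75 and 8.13 in BALB, at least 10.9-fold higher. Its neighbour Ifit2 (chr19:34277058-34277117, plus strand) was at 4.86, 5.44 and 6.12 in CBA and at 7.87, 8.53 and 8.81 in BALB (difference -3.04 ± 0.19 SE, adjusted p = 1.57e-09). On chromosome 1, 3 members of the Ifi200 family, which sense DNA, were lower in every CBA array than in any BALB array (all genes, 29%). Ifi204 (chr1:173721318-173721377, minus strand) was at 2.19, 2.74 and 3.20 in CBA and at 6.22, 6.43 and 6.78 in BALB, at least 4.57-fold higher. Ifi203 (chr1:173886462-173886521, minus strand) was well above background on 1 CBA array and on all 7 BALB arrays, and by the same bound was at least 4.50-fold higher in BALB. Ifi202b, not on the list and named after its values had been seen, was at 2.03, 2.16 and 2.32 in CBA and at 6.06, 6.55 and 7.65 in BALB, at least 5.14-fold higher. Members of these families resemble one another in sequence, so a probe may take signal from more than one.

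The list also held genes for other steps of the interferon response. Ifih1, a sensor of double-stranded RNA, was well above background on 2 CBA arrays and was at least 9.79-fold higher in BALB. Ifi44 was at 2.23, 2.55 and 3.71 in CBA and at 5.25, 5.61 and 8.06 in BALB, at least 3.13-fold higher, with its highest value on BALB array 1. Iigp1 and Irgm1 are GTPases of the defence against microbes inside cells. Iigp1, well above background on 2 CBA arrays, was at least 8.65-fold higher in BALB, and Irgm1 differed by -2.22 ± 0.12. Rsad2 (viperin) and Mx2, both antiviral, differed by -2.70 ± 0.31 and by -2.69 ± 0.16, and both were well above background on 4 CBA arrays. Trim30a was off in CBA, but its groups overlapped by this measure of level (2.11 to 3.80 in CBA, 3.60 to 5.49 in BALB) and its bound was 1.64-fold. Irf7, which drives interferon genes, differed by 0.44 ± 0.21 and was not called (adjusted p = 0.062), with a sign that turned after GC centring.

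Ifitm3, which blocks the entry of viruses into cells, was the one listed gene called the other way. It was at 11.79, 12.53 and 13.37 in CBA and at 9.80, 10.27 and 10.62 in BALB (difference 2.37 ± 0.20, adjusted p = 3.44e-08). In the other mice, all 34 genes of the list were well above background on the 5 C57BL6 hypothalamus arrays (all genes, 99.5%), and 26 of them on the 4 BALB frontal cortex arrays (76.5%; all genes, 92.2%). The level in BALB frontal cortex was nearer to CBA for 24 of the 34 (70.6%; all genes, 69.9%), and the level in C57BL6 hypothalamus was nearer to BALB for 31 (91.2%; all genes, 74.3%). Gbp2b, outside the list, was well above background on 0 of 5 C57BL6 arrays and on 3 of 4 BALB frontal cortex arrays. Gbp3 was at 5.90, 6.35 and 6.92 in BALB frontal cortex on the CBA design, above every CBA hypothalamus array and below every BALB one. Ifit1 was at 4.12 to 4.94 there, Gbp2b at 2.30 to 4.67 and Ifi204 at 3.29 to 4.96, also below every BALB hypothalamus array.

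**Figure D2:**
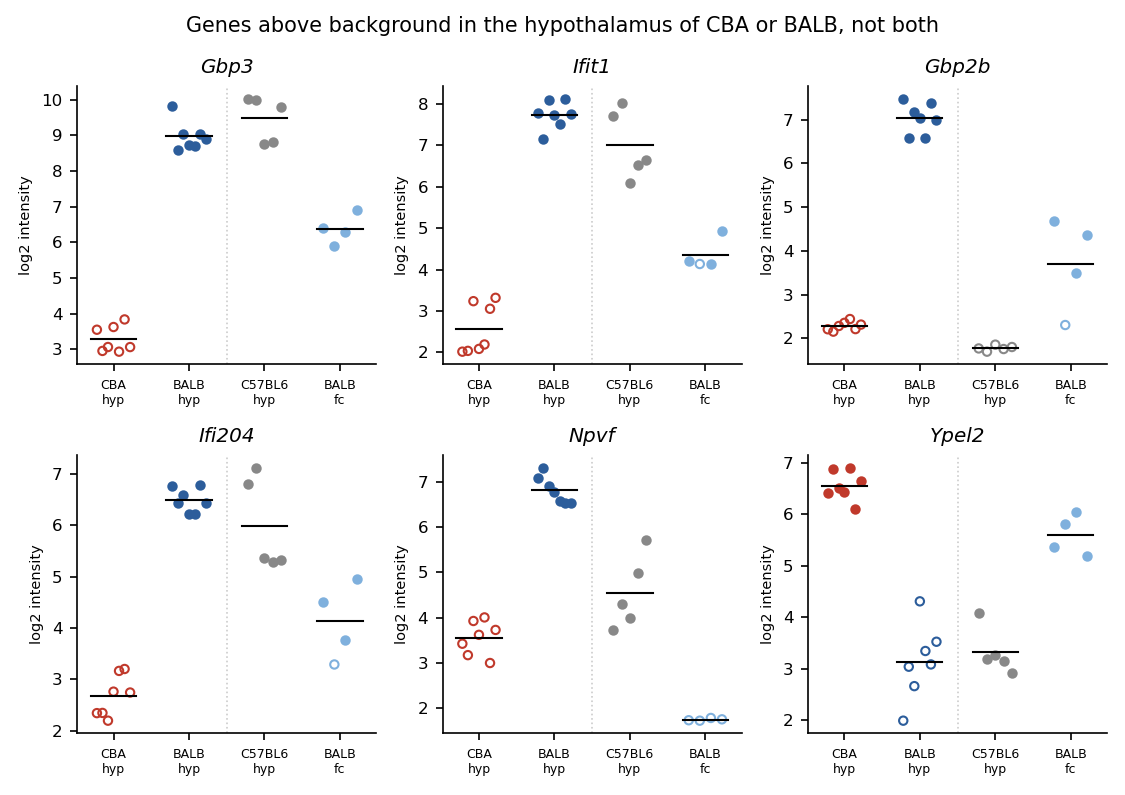
Log2 intensity (vertical axes) of 6 genes on each array of CBA and BALB hypothalamus (hyp) and, right of the dotted line, of C57BL6 hypothalamus (same array design as BALB) and BALB frontal cortex (fc, same design as CBA), both mapped to the same distribution. Filled points were well above background, open points were not, and lines are means. Gbp3, Ifit1, Gbp2b, Ifi204 and Npvf had open points on all 7 CBA arrays and filled points on all 7 BALB arrays, and Ypel2 the reverse.

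The other on-off genes with the largest bounds, among those with a symbol, came from several families. Of the 331 on in BALB, 192 had a gene symbol of their own, the median bound was 2.45-fold, and 69 had a bound of 4-fold or more. Pdgfd, a ligand of the platelet-derived growth factor receptor, was at 1.96, 2.20 and 4.45 in CBA and at 7.44, 8.15 and 8.39 in BALB, at least 13.4-fold higher. The zinc finger genes Zfp661 and Zfp119a had bounds of 12.6-fold and 6.79-fold. Tgtp1, another interferon-induced GTPase, had a bound of 10.5-fold. Nt5e (CD73), which makes adenosine outside the cell, had a bound of 10.4-fold. Lrrc2 and Eya4, a transcriptional coactivator, had bounds of 8.61-fold and 7.44-fold.

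Among the same on-off genes were 2 markers of immune cells of the brain. Ptprc (CD45), found on all white blood cells and on microglia, was at 2.68, 3.53 and 4.22 in CBA and at 6.73, 7.21 and 7.71 in BALB, at least 7.18-fold higher. Siglech, a lectin of microglia, was at 2.32, 3.05 and 4.69 in CBA and at 6.40, 7.07 and 7.23 in BALB, at least 6.18-fold higher. The 14 microglia markers did not move together. Of these, 5 were called higher in CBA (all genes, 38.1%) and 5 higher in BALB (all genes, 30.8%), and the median difference was 0.09 (all genes, 0.25). After GC centring the counts were 3 and 7 and the median was -0.38 (all genes, 0.06). Their mean level lay between 10.06 and 10.38 on the CBA arrays and between 10.47 and 10.70 on the BALB arrays, with no overlap. P2ry12 differed by -2.15 ± 0.11, Ctss by -1.54 ± 0.08 (over 6 BALB arrays) and Cx3cr1 by -1.29 ± 0.12, though the other probe of Cx3cr1 went the other way. Csf1r, the growth factor receptor that microglia need, differed by 0.32 ± 0.10 and was not called. The members named here do not stand for the 5 called higher in CBA, and Ptprc was not on the list. Gbp6, Parp9 and Sp100, which interferon induces, were also off in CBA and on in BALB, with bounds of 5.38-fold, 5.73-fold and 5.59-fold, and were named after their values had been seen.

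Of the 45 genes on in CBA and off in BALB, 2 had a gene symbol of their own and the others were transcripts known only by clone or accession. The level in BALB frontal cortex was nearer to CBA for 37 of the 45 (82.2%; all genes, 69.9%). In C57BL6 hypothalamus it was nearer to BALB for 6 (13.3%; all genes, 74.3%). Ypel2 was at 6.10, 6.50 and 6.90 in CBA and at 2.00, 3.09 and 4.31 in BALB, at least 7.07-fold higher in CBA. In BALB frontal cortex, on the CBA design, it was at 5.185 to 6.05, and in C57BL6 hypothalamus, on the BALB design, at 2.92 to 4.09. The part of the design in this difference was not tested. Artn (artemin, a growth factor of sensory neurons) was at 5.05, 5.16 and 5.85 in CBA and at 2.03, 3.82 and 4.15 in BALB, at least 2.83-fold higher, but its difference of 1.69 fell to -0.03 after GC centring. The count of such genes rested on BALB array 1. Without it 139 genes were on in CBA and off in BALB (0.718%), and 329 the reverse (1.7%).

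Genes well above background on all 14 arrays are those in which both strains were measured. The 15 with the largest differences towards CBA ran from 4.66 to 3.18. Synpo, an actin-binding protein of dendritic spines, was at 11.81, 13.18 and 13.95 in CBA and at 7.16, 8.09 and 9.67 in BALB (difference 4.66 ± 0.37, adjusted p = 1.8e-08). Otud3, a deubiquitinase, was at 10.83, 10.92 and 11.08 in CBA and at 5.74, 6.51 and 7.06 in BALB (4.51 ± 0.21). Best1, a chloride channel, was at 9.98, 10.08 and 10.21 in CBA and at 5.24, 5.61 and 6.26 in BALB (4.38 ± 0.15). For Otud3 and Best1 the BALB frontal cortex, measured on the CBA design, was low like the BALB hypothalamus (medians 6.13 and 4.50). C57BL6 hypothalamus was high on the BALB design (medians 9.72 and 9.74). The frontal cortex arrays also differ in region and sex, and the part of these was not tested. Cryzl2, a quinone reductase-like enzyme, had the same order, with medians of 10.45 in CBA, 7.07 in BALB, 6.78 in BALB frontal cortex and 9.10 in C57BL6 (3.35 ± 0.13).

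Several others in this set have probes very rich in G and C. Grin2d, an NMDA receptor subunit, was at 11.70, 12.45 and 13.03 in CBA and at 7.78, 8.34 and 8.83 in BALB (4.07 ± 0.20), and after GC centring its difference was 2.35. Tfap2e and Foxq1, both transcription factors, differed by 4.19 ± 0.35 and 3.92 ± 0.19, and by 2.47 and 2.20 after GC centring. For these 3 genes and for Synpo the medians in BALB frontal cortex (10.87, 13.67, 10.73 and 10.85 for Grin2d, Tfap2e, Foxq1 and Synpo) and in C57BL6 hypothalamus (12.09, 15.32, 11.83 and 12.25) lay above every BALB hypothalamus array. Arl4d, a small GTPase (4.44 ± 0.28), Tmem143 (3.30 ± 0.53), the amino acid transporter Slc43a2 (3.24 ± 0.12) and Mical3 (3.19 ± 0.16), which acts on actin and vesicle transport, completed the set beside 4 genes described below. A further probe of Slc43a2 went the other way.

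The 15 genes with the largest differences towards BALB ran from -4.37 to -3.48. Ogn (osteoglycin), a proteoglycan of connective tissue, was at 4.01, 5.95 and 7.83 in CBA and at 8.55, 10.69 and 11.77 in BALB (-4.37 ± 0.60, adjusted p = 6.64e-06), with the largest SE of the 15. Ttc8 (Bbs8), part of the complex that carries proteins into cilia, was at 5.52, 6.15 and 6.84 in CBA and at 10.15, 10.47 and 10.51 in BALB (-4.14 ± 0.17). Tmc7 was at 6.36, 6.45 and 6.93 in CBA and at 10.35, 10.64 and 11.03 in BALB (-4.10 ± 0.12), with its other probe going the other way. In BALB frontal cortex, on the CBA design, Ttc8 and Tmc7 had medians of 9.10 and 9.85, which lay nearer to the BALB than to the CBA hypothalamus. Zfp933 (-3.55 ± 0.09; medians 5.34 in CBA, 8.94 in BALB and 8.32 in BALB frontal cortex) and Fam126b (-3.54 ± 0.17; 5.77, 9.47 and 8.88) had the same order.

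For other genes of this set the BALB frontal cortex lay with the CBA hypothalamus. Amy1, the salivary amylase, was at 9.04, 9.28 and 9.47 in CBA and at 12.84, 13.16 and 13.49 in BALB (-3.88 ± 0.10), with a median of 8.53 in BALB frontal cortex. Ktn1 (kinectin), which anchors motor proteins to the endoplasmic reticulum, was at 10.57, 10.81 and 11.22 in CBA and at 14.41, 14.53 and 14.58 in BALB (-3.69 ± 0.09), with 11.20 in BALB frontal cortex and 14.21 in C57BL6 hypothalamus. Ttc3, a ubiquitin ligase, and Tpr, of the nuclear pore, followed this order too, with medians of 11.37 and 9.52 in CBA, 15.09 and 13.19 in BALB and 11.55 and 9.03 in BALB frontal cortex (-3.62 ± 0.11 and -3.48 ± 0.15). Whether frontal cortex and hypothalamus differ in these genes was not tested.

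Further genes towards BALB were Necab1 (-3.72 ± 0.31), a calcium-binding protein of neurons, Mtif2 (-3.63 ± 0.10), which starts translation in mitochondria, Anxa1 (-3.60 ± 0.28), an anti-inflammatory annexin, Aox1 (-3.60 ± 0.10), an aldehyde oxidase, and Ppil4 (-3.53 ± 0.09). Over all large differences of genes with several tested probes, every probe went the same way for 100 of 120 genes higher in CBA (83.3%) and 562 of 688 higher in BALB (81.7%), against 72.2% of all genes with several probes.

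Immediate early genes, which neurons switch on within minutes of being active, were higher in CBA. Of 19 tested, 14 were called higher in CBA (all genes, 38.1%) and 0 higher in BALB, and the median difference was 1.67 (all genes, 0.25). GC centring gave 13 and 0, with a median of 1.65. Fos was at 11.35, 11.42 and 11.68 in CBA and at 7.91, 8.04 and 10.85 in BALB (difference 2.78 ± 0.39, adjusted p = 8.35e-06). Fosb, of the same family as Fos, was at 8.60, 8.88 and 9.43 in CBA and at 6.15, 6.47 and 7.15 in BALB (2.36 ± 0.18). Egr4 was at 12.26, 12.47 and 12.76 in CBA and at 8.91, 9.50 and 11.65 in BALB (2.55 ± 0.40). None of the 3 overlapped between the strains (without overlap and higher in CBA, 36.2% of all genes tested). The CBA arrays lay closer together than the BALB arrays.

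Npas4, which neuronal activity induces, was at 7.89, 8.49 and 9.36 in CBA and at 4.94, 6.54 and 6.97 in BALB (2.28 ± 0.30). Btg2 and Atf3, which stress also induces, differed by 2.18 ± 0.23 and 2.03 ± 0.19, with no overlap. Of the best known members, named for their role with their values known, Arc (1.59 ± 0.19) and Jun (1.23 ± 0.11) did not overlap either. Egr1 (1.85 ± 0.34) and Nr4a1 (1.80 ± 0.35) were called but overlapped, and Junb (0.91 ± 0.23) was not called. Of the genes with the largest differences, Nab2, a corepressor of the Egr factors, differed by 3.52 ± 0.17 and the salt-inducible kinase Sik1 by 3.20 ± 0.12, and the levels of both were higher on every CBA array than on any BALB array.

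The mean level of the 19 genes was 11.03 to 11.34 on the CBA arrays and 9.20 to 10.45 on the BALB arrays. BALB arrays 1 and 6 were the highest of the latter, at 10.45 and 10.11 (Fos at 10.85 on array 1), and the other 5 lay between 9.20 and 9.51. In C57BL6 hypothalamus all 19 genes were nearer to BALB than to CBA (all genes, 74.3%), with a median of 7.96 for Fos and 6.46 for Fosb. In BALB frontal cortex 18 of the 19 were nearer to CBA (all genes, 69.9%). At 12 to 13 months, in other mice, the median difference of the list was 1.20, and at 20 to 23 months it was 1.07. The labels give no time of day or handling before death, and their part in the difference was not tested.

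**Figure D3:**
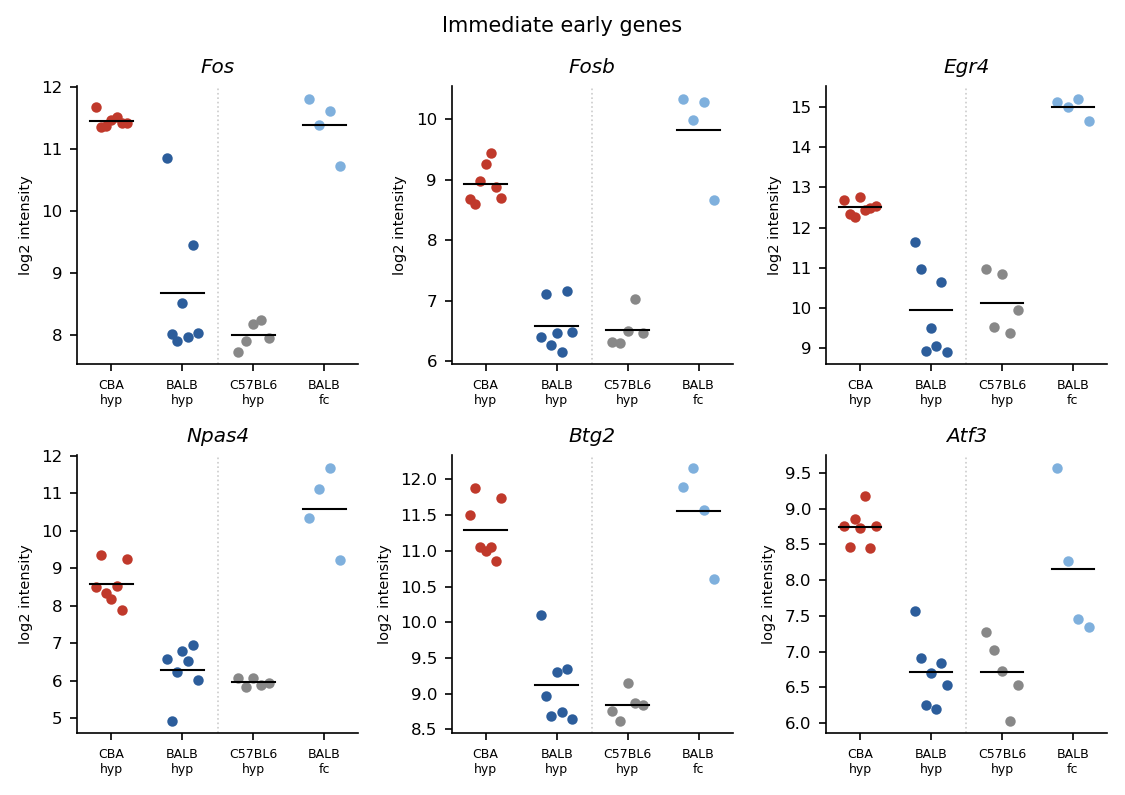
Log2 intensity (vertical axes) of 6 immediate early genes on each array, with groups and symbols as in the plot of on-off genes. For each gene every CBA hypothalamus array lay above every BALB hypothalamus array, and the C57BL6 hypothalamus arrays lay near the BALB arrays.

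Hypothalamic peptides differed gene by gene. Of 30 tested, 6 were called higher in CBA (all genes, 38.1%) and 8 higher in BALB (all genes, 30.8%), the median difference was 0.23 (all genes, 0.25), and 16 were not called. After GC centring the counts were 8 (all genes, 33.1%) and 11 (all genes, 32.6%) and the median was -0.59 (all genes, 0.06). Npvf, which encodes the gonadotropin-inhibiting RFamide peptides of the dorsomedial hypothalamus, was an on-off gene. It was at 3.00, 3.62 and 4.01 in CBA and at 6.52, 6.76 and 7.31 in BALB, at least 5.71-fold higher in BALB. In C57BL6 hypothalamus Npvf was at 3.73, 4.30 and 5.71, with the median between the strains and the lowest value within the CBA range. It was well above background on all 5 of these arrays. In BALB frontal cortex, where no such neurons are known, it was well above background on 0 of 4.

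Vip, the peptide of the clock neurons of the suprachiasmatic nucleus, was at 4.84, 5.20 and 5.56 in CBA and at 8.31, 8.52 and 9.0 in BALB (-3.42 ± 0.14, adjusted p = 1.48e-11). In BALB frontal cortex, whose interneurons also make it, Vip had a median of 8.66 on the CBA design, above every CBA hypothalamus array. Trh, which drives the thyroid axis, was at 12.80, 13.01 and 13.19 in CBA and at 10.54, 10.98 and 11.63 in BALB (1.95 ± 0.15, adjusted p = 9.41e-09). Nts (neurotensin) was at 10.84, 11.47 and 11.89 in CBA and at 12.83, 13.36 and 13.64 in BALB (-1.91 ± 0.18, adjusted p = 9.04e-08). All 4 differences kept their direction at the other ages, where Trh differed by 1.79 and 1.90 and Nts by -1.74 and -1.78.

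The peptides best known for feeding and water balance are named for their role with their values known. Agrp and Npy, which drive feeding, differed by 0.85 ± 0.20 and 0.26 ± 0.14, and Pomc, which restrains it, by 0.18 ± 0.22. Hcrt (orexin, 0.30 ± 0.18), Avp (vasopressin, 0.11 ± 0.16) and Sst (somatostatin, 0.32 ± 0.10) were not called either, and all 6 genes overlapped between the strains. Oxt (oxytocin) was at 14.79, 15.26 and 15.44 in CBA and at 16.06, 16.35 and 16.69 in BALB (-1.15 ± 0.11). Pmch (melanin-concentrating hormone) was at 13.76, 14.18 and 14.54 in CBA and at 15.60, 15.82 and 15.93 in BALB (-1.62 ± 0.11), and Penk (enkephalin) differed by 0.33 ± 0.06. The signs of Npy, Pomc, Hcrt and Avp turned after GC centring.

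Before GC centring, receptors of the hormones and peptides of energy balance were called at shares near those of all genes. Of 34 tested, 10 were called higher in CBA (all genes, 38.1%) and 12 higher in BALB (all genes, 30.8%), with a median of 0.01 (all genes, 0.25). After GC centring the counts were 5 (all genes, 33.1%) and 13 (all genes, 32.6%) and the median was -0.27 (all genes, 0.06). Npy1r, a receptor of neuropeptide Y, was at 4.19, 4.84 and 5.39 in CBA, where it was well above background on 4 arrays, and at 7.29, 7.81 and 8.06 in BALB (-2.92 ± 0.17, adjusted p = 4.72e-10). Npy2r, another receptor of the peptide, was at 7.15, 7.47 and 7.63 in CBA and at 9.08, 9.61 and 10.01 in BALB (-2.10 ± 0.14). The receptors Tacr3 for neurokinin B (-2.58 ± 0.19), Trhr for thyrotropin-releasing hormone (-2.21 ± 0.13) and Htr2c for serotonin (-2.09 ± 0.13) differed in the same direction, and Trhr was thus lower in the strain in which its ligand was higher. The glucocorticoid receptor Nr3c1 differed by -1.89 ± 0.10. The melanocortin receptors went the other way, with Mc3r at 9.08, 9.69 and 10.01 in CBA and 7.71, 7.82 and 8.39 in BALB (1.71 ± 0.15), and Mc4r at 0.68 ± 0.08 above BALB.

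Transcription factors that lay down the hypothalamus in the embryo were mostly higher in CBA. Of 21 tested, 14 were called higher in CBA (all genes, 38.1%) and 1 higher in BALB (all genes, 30.8%), with a median of 1.50 (all genes, 0.25), and 12 and 1 after GC centring, with a median of 1.03. Nkx2-1, without which the ventral hypothalamus does not form, was at 10.07, 10.30 and 10.54 in CBA and at 8.23, 8.53 and 8.90 in BALB (1.79 ± 0.12, adjusted p = 2.32e-09). Sox14 (2.23 ± 0.26), Hmx2 (1.93 ± 0.25), Nr5a1 of the ventromedial nucleus (1.73 ± 0.27) and Isl1 of the arcuate nucleus (0.75 ± 0.14) were also higher. Bsx, of feeding neurons, was well above background on all 7 CBA arrays and on 1 BALB array, and was at least 2.35-fold higher in CBA. Six6, needed for the suprachiasmatic nucleus, was the exception, at 3.94, 4.35 and 5.21 in CBA and 6.24, 6.59 and 6.99 in BALB (-2.10 ± 0.18). The mean level of the list was 8.84 to 9.27 on the CBA arrays and 7.86 to 8.20 on the BALB arrays, and 18 of its 21 genes were nearer to BALB in C57BL6 hypothalamus (all genes, 74.3%).

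Genes of neurotransmitter neurons and of their synapses leaned to BALB, with 1 of 16 called higher in CBA (all genes, 38.1%), 8 higher in BALB (all genes, 30.8%) and a median of -1.15 (all genes, 0.25). Gad2, which makes GABA, was at 9.38, 9.89 and 10.31 in CBA and at 12.68, 12.90 and 13.32 in BALB (-3.02 ± 0.13, adjusted p = 3.93e-11), and Gad1, which makes it too, differed by -1.52 ± 0.13. Slc17a6, the glutamate transporter of hypothalamic neurons, differed by -1.91 ± 0.15. Slc5a7, which takes up choline in cholinergic neurons, was well above background on 2 CBA arrays and 7 BALB arrays and was at least 12.6-fold higher in BALB by the means, with overlap, the highest CBA array being at 6.10 and the lowest BALB array at 6.09. The synaptic vesicle proteins Syt1 (-2.88 ± 0.16, over 6 BALB arrays) and Snap25 (-2.81 ± 0.12) had all 5 and all 3 of their probes in the same direction. The mean level of the list was 10.37 to 10.75 on the CBA and 11.22 to 11.79 on the BALB arrays. For 12 of these 16 genes the BALB frontal cortex, on the CBA design, was nearer to CBA (75%), a share close to that of all genes (69.9%).

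**Figure D4:**
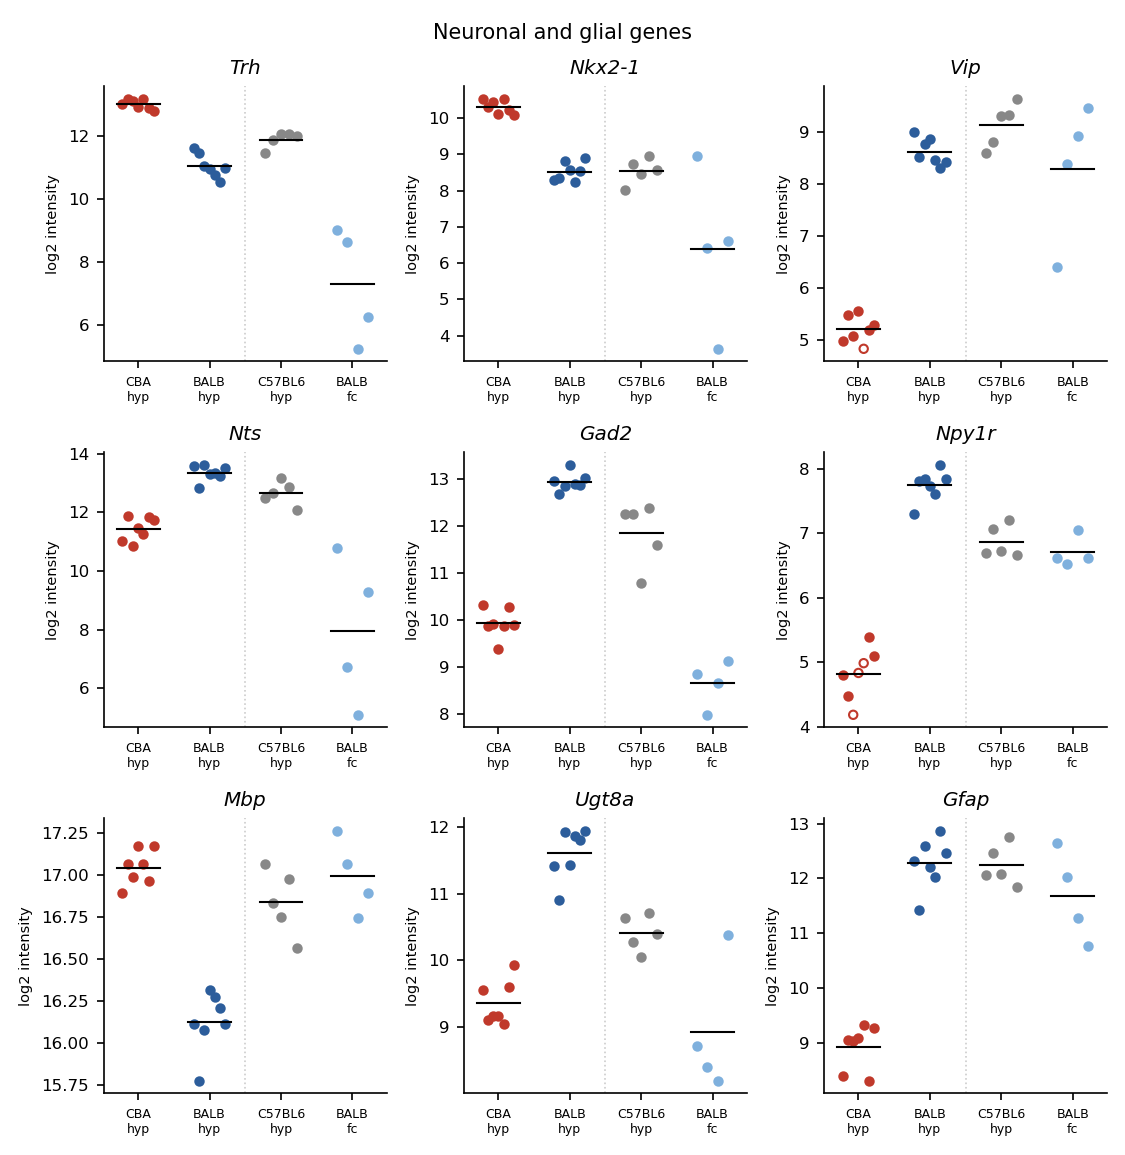
Log2 intensity (vertical axes) of 6 neuronal genes and 3 glial genes on each array, with groups and symbols as in the plot of on-off genes. Trh, Nkx2-1 and Mbp were higher on every CBA than on any BALB hypothalamus array, and Vip, Nts, Gad2, Npy1r, Ugt8a and Gfap were lower. For Ugt8a the BALB frontal cortex arrays, with a median of 8.56, lay below every BALB hypothalamus array, and for Mbp they lay with CBA and C57BL6.

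Myelin genes did not move as one. Of 10 oligodendrocyte markers, 5 were called higher in CBA (all genes, 38.1%) and 4 higher in BALB (all genes, 30.8%), with a median of 0.24 (all genes, 0.25). Ugt8a, which makes the galactolipids of myelin, was at 9.05, 9.17 and 9.94 in CBA and at 10.905, 11.80 and 11.95 in BALB (-2.24 ± 0.18, adjusted p = 2.07e-08). Mbp, myelin basic protein, was at 16.89, 17.06 and 17.17 in CBA and at 15.77, 16.11 and 16.32 in BALB (0.92 ± 0.08, adjusted p = 7.81e-08). Mobp (-2.41 ± 0.22, over 6 BALB arrays, since an outlier spot was left out) went with Ugt8a, and Opalin (1.57 ± 0.14), Mog (1.31 ± 0.14), Mag (0.95 ± 0.16) and Cnp (0.86 ± 0.10) went with Mbp. One of the 3 probes of Mbp went the other way. For all 10 genes the BALB frontal cortex was nearer to CBA than to BALB hypothalamus (all genes, 69.9%). Among 5 markers of oligodendrocyte precursors, Pdgfra differed by -2.08 ± 0.09 and Olig2 by 1.28 ± 0.10, Cspg4 (0.78 ± 0.08) turned in sign after GC centring, and Olig1 (0.61 ± 0.12) was not called.

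Astrocyte markers leaned to BALB, with 6 of 9 called higher there (all genes, 30.8%) and 1 higher in CBA (all genes, 38.1%), and a median of -1.03 (all genes, 0.25). The mean level of the 9 genes was 11.16 to 11.36 on the CBA and 12.09 to 12.44 on the BALB arrays. Gfap, their intermediate filament, was at 8.31, 9.07 and 9.33 in CBA and at 11.43, 12.31 and 12.87 in BALB (-3.34 ± 0.22, adjusted p = 1.93e-09), but 2 dimmer probes of Gfap went the other way. The glutamate transporter Slc1a3 (-1.92 ± 0.12) also had 2 dimmer probes in the other direction. The water channel Aqp4 (-1.77 ± 0.18) had all 3 probes in the same direction, and S100b (-1.44 ± 0.08) had a single probe. In tanycytes, the cells that line the third ventricle, and in the ciliated ependyma beside them, 2 of 6 markers were called in each direction. Dio2, which activates thyroid hormone, was at 7.85, 8.02 and 8.74 in CBA and 9.59, 10.33 and 10.61 in BALB (-2.08 ± 0.16). Foxj1, the switch for motile cilia, differed by 1.42 ± 0.19, Vim by -0.98 ± 0.14, and Col23a1 (0.78 ± 0.15) turned in sign after GC centring.

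MHC genes and their neighbours leaned to CBA, with 16 of 30 called higher there (all genes, 38.1%), 4 higher in BALB (all genes, 30.8%) and a median of 0.78 (all genes, 0.25). GC centring brought the median to 0.12 (all genes, 0.06) and the counts to 9 and 7, near the shares of all genes (33.1% and 32.6%). CBA and BALB carry different MHC haplotypes, and whether the probes fit both equally was not tested. H2-Bl, of the class I region, was at 8.81, 9.09 and 9.51 in CBA and at 5.11, 5.36 and 7.01 in BALB (3.57 ± 0.24, adjusted p = 3.08e-09), and all 3 of its probes went the same way. Tap2, a subunit of the transporter that loads class I molecules with peptide, was at 10.06, 10.39 and 10.52 in CBA and at 6.36, 6.89 and 9.02 in BALB (3.18 ± 0.34, adjusted p = 4.6e-07). The other subunit, Tap1 (chr17:32273751-32273810, plus strand), differed by 1.04 ± 0.18 and overlapped. The adjoining immunoproteasome genes Psmb8 and Psmb9 differed by 1.09 ± 0.18 and 1.16 ± 0.21, and overlapped too.

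The class I gene H2-T22 differed by 1.36 ± 0.08 without overlap. The classical class I genes H2-K1 (0.46 ± 0.21) and H2-D1 (0.23 ± 0.15) overlapped at their brightest probes, though another probe of H2-K1 had B above 0. H2-Ab1, of class II, was at 7.25, 8.42 and 9.28 in CBA and at 8.76, 9.91 and 10.85 in BALB (-1.44 ± 0.38), overlapped at its brightest probe and was called through another of its 4 probes, all in the same direction. Class I genes are near-identical to each other in sequence, and the signal of one cannot be told from that of its relatives with certainty. The mean level of the list was 10.005 to 10.65 on the CBA arrays. BALB array 1, at 10.41, lay within that range, and the other 6 BALB arrays lay between 9.25 and 9.75.

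Clock genes were called at shares near those of all genes, 8 of 19 higher in CBA (all genes, 38.1%) and 5 higher in BALB (all genes, 30.8%). Per1, a repressor of the clock that light and glucocorticoids also induce, was at 12.47, 12.88 and 12.92 in CBA and at 10.67, 10.91 and 11.78 in BALB (1.80 ± 0.14, adjusted p = 1.9e-08). Nr1d1 (1.79 ± 0.08) was higher in CBA, while its relative Nr1d2 (-1.84 ± 0.12), the activator Clock (-1.64 ± 0.09) and Rorb (-2.70 ± 0.28) were lower. Arntl, the partner of Clock, differed by -0.40 ± 0.06. One of the 3 probes of Rorb and 1 of the 4 of Clock went the other way.

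Of 48 glutathione, aldehyde and redox enzymes, 17 were called higher in CBA and 14 higher in BALB, near the shares of all genes (38.1% and 30.8%), with a median of -0.14 (all genes, 0.25). Gpx3, the secreted glutathione peroxidase, was at 14.10, 14.22 and 14.44 in CBA and at 11.57, 12.03 and 12.14 in BALB (2.32 ± 0.10, adjusted p = 2.42e-11). Aldh2, which clears acetaldehyde, was at 13.28, 13.57 and 13.69 in CBA and at 10.81, 11.24 and 12.11 in BALB (2.14 ± 0.19). Gsta3, a glutathione transferase, was at 5.36, 5.57 and 5.99 in CBA and at 7.71, 8.11 and 8.78 in BALB (-2.51 ± 0.15). Hmox1 (1.92 ± 0.41) did not overlap but was not called. Among 16 genes that stress or glucocorticoids induce, 3 were called higher in CBA and 6 higher in BALB. The heat shock proteins Hsp90aa1 (-2.62 ± 0.11) and Hsph1 (-2.34 ± 0.11), the sulfotransferase Sult1a1 (-2.55 ± 0.22) and the lipid droplet protein Plin4 (-1.79 ± 0.31) were the 4 with the largest differences. For Hsp90aa1 the medians were 14.21 in CBA, 16.89 in BALB, 14.39 in BALB frontal cortex and 17.06 in C57BL6 hypothalamus.

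**Figure D5:**
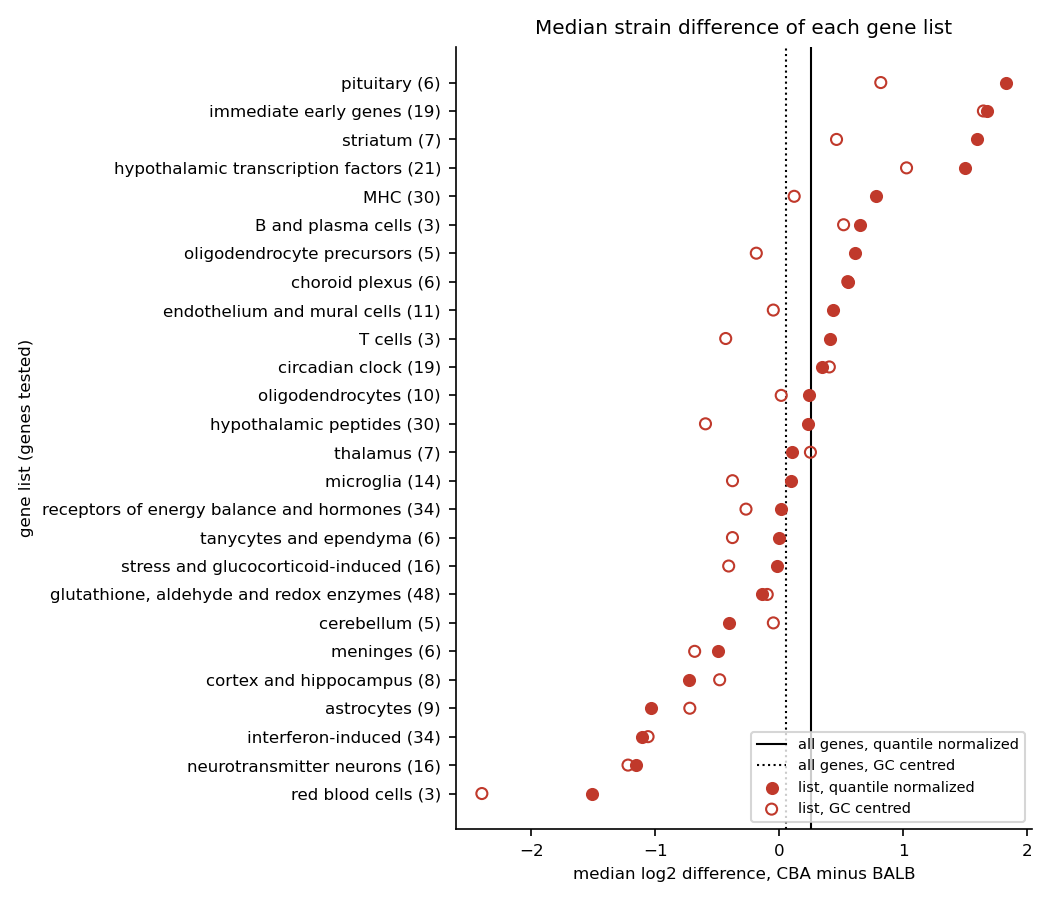
Median log2 difference (CBA minus BALB, horizontal axis) of the tested genes of each of the 26 lists, with the number of genes in parentheses, before (filled) and after (open) GC centring. Vertical lines are the medians of all genes, 0.25 (solid) and 0.06 (dotted). Among the lists to the right of both lines were pituitary, immediate early genes, striatum and hypothalamic transcription factors. Among those to the left were red blood cells, neurotransmitter neurons, interferon-induced genes and astrocytes. The filled point furthest right was that of pituitary (1.83), and that furthest left was that of red blood cells (-1.51).

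A dissected hypothalamus may hold other tissues, whose markers were counted against the same shares of all genes (38.1% called higher in CBA and 30.8% higher in BALB), and their part in the differences above was not tested. Of 7 striatal markers, 4 were called higher in CBA, with a mean level of 9.41 to 9.64 in CBA and 8.37 to 8.73 in BALB. Among them were Gpr6 (2.03 ± 0.12), Adora2a (1.74 ± 0.16) and Drd2 (1.59 ± 0.11), receptors of the indirect pathway, and Ppp1r1b (2.14 ± 0.19), which fell to 0.41 after GC centring. Of 8 markers of cortex and hippocampus, Emx1 alone was called (2.75 ± 0.16). Tbr1 (-1.52 ± 0.69), Neurod1 (well above background on 1 CBA array) and Slc17a7 (-0.88 ± 0.87) overlapped, and the median levels of Slc17a7 were 4.78 and 6.25, against 12.62 in BALB frontal cortex. Of 7 thalamic markers, Rgs16 (1.55 ± 0.27) was called higher in CBA and Ntng1, named after its values had been seen, higher in BALB through a dimmer probe, while Vav3 (-1.24 ± 0.29), Lef1 (0.96 ± 0.20) and Prkcd (-0.28 ± 0.70) were not called and overlapped. Of 5 cerebellar markers, 3 were called higher in CBA, among them Barhl2 (2.04 ± 0.35, well above background on 3 BALB arrays) and Pcp2 (1.85 ± 0.16), Calb1 (-1.94 ± 0.09) was higher in BALB and Zic1 (-0.72 ± 0.21) was not called.

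Pituitary hormones varied widely between arrays of the same strain. Prl was at 3.60, 5.18 and 8.65 in CBA and at 2.80, 9.02 and 13.58 in BALB, and Gh at 1.82, 2.38 and 4.78 in CBA and at 5.14, 6.13 and 11.12 in BALB. Neither was called, nor were Cga (2.75 ± 0.79) and Fshb. Gh was well above background on 1 CBA array and Fshb on 2 BALB arrays. Of the 6 pituitary genes tested only Lhb was called, higher in CBA, and it was named after its values had been seen. The globins Hba-a1 (-1.57 ± 0.30) and Hbb-bt (-1.51 ± 0.28), signs of blood in the tissue, were higher in BALB without overlap, and Alas2 (-0.77 ± 0.41) overlapped. Of 11 markers of vessels, 4 were called in each direction, among them Rgs5 of pericytes (-2.29 ± 0.13), Slco1a4 (-2.17 ± 0.11) and Tek (-2.13 ± 0.23) of endothelium, with a further probe of Tek going the other way, and Tagln of smooth muscle (1.80 ± 0.31).

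In the choroid plexus list, of which Ttr was not tested, 3 of 6 genes were called higher in CBA and 1 higher in BALB. Aqp1 differed by 2.25 ± 0.27, Kl by -0.87 ± 0.16, Steap1 by 0.71 ± 0.13 and Folr1 by 0.63 ± 0.11, the last with a sign that turned after GC centring. Of 6 markers of meninges, Dcn (-1.96 ± 0.23) was called, while Col1a2 (-1.10 ± 0.32), Igf2 (0.96 ± 0.44) and Col1a1 (0.80 ± 0.27) overlapped. Of 3 tested T cell genes, Gzmk (-1.64 ± 0.16) and Cd3e (1.60 ± 0.15) were called in opposite directions and Nkg7 (0.41 ± 0.24) was not. Of B cell genes, Cd79a, well above background on 4 CBA and 3 BALB arrays, and Cd79b, on 2 and 5, were not called. Of the T and B cell genes with defining roles, Cd3d, Cd3g, Cd8a and Ms4a1 were too dim to be tested.

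Position in the genome showed a difference between chromosomes. On chromosome X, 83 of 476 tested genes had a large difference towards BALB (17.4%, against 8.4% of all genes), the median difference was -0.78, and after GC centring it was -0.72. On chromosome 3, which holds Gbp2, Gbp2b and Gbp3, 103 of 706 had a large difference towards BALB (14.6%). The share was 13.8% on chromosome 12 and 13.2% on chromosome 13, and on chromosome 7 it was 5.23% (60 of 1148). The median G and C content of the probes was 40% on X, 41.7% on chromosomes 3, 12 and 13, and 45% on chromosome 7. After GC centring the median difference was -0.47 on chromosome 3, -0.19 on 12, -0.44 on 13 and 0.12 on 7. No test was made of the shares with a large difference, and the part of base composition in them was not tested.

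Other mice of the same strains were measured at later ages, on the same 2 designs. At 12 to 13 months (5 mice a strain) 7108 of 18817 genes were called higher in CBA (37.8%) and 5753 higher in BALB (30.6%). At 20 to 23 months (8 CBA and 6 BALB mice) 7053 of 18985 were called higher in CBA (37.2%) and 5598 higher in BALB (29.5%). All 1109 genes tested at 12 to 13 months of the 1132 with a large difference towards CBA at 2 to 3 months had the same direction, with a median of 2.37, and 798 were large again (all genes at that age, 5.45%). All 1573 such genes towards BALB also had the same direction, with a median of -2.42, and 1372 were large again (all genes, 8.96%). At 20 to 23 months 901 of 1126 tested genes were large again towards CBA (all genes, 6.24%) and 1447 of 1587 towards BALB (9.37%). Of the on-off genes, 185 of 331 in BALB and 34 of 45 in CBA were on in every array and off in every array of the same strains at 12 to 13 months, and 213 and 29 were at 20 to 23 months. At both ages 143 and 27 were, among them Gbp3, Ifit1, Gbp2b, Siglech and Ypel2. Npvf was not, being well above background on 1 CBA array at each later age. These comparisons share the design, slide and software differences of the young mice.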

How the data were processed

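Total RNA was labelled with Cy3 and hybridized to Agilent whole-genome mouse arrays of 2 designs. Intensities were deposited as the scanner files of Agilent Feature Extraction (9.1 per the labels), in which the authors' processed signal is background-subtracted. Processed log2 values were also deposited by the authors in a single table, and were used as an alternative for the young mice. The log2 of the processed signal was quantile normalized over the 14 arrays, control spots and spots flagged as outliers were left out, and spots of a probe were averaged. Probes on both designs were named by accession, then by symbol, and otherwise kept the name in the file.

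Of 41174 shared probes, 27862 were well above background on at least 7 of the 14 arrays and were tested. They were fitted with limma 3.58.1 (R 4.3.3, statmod 1.5.0 and version 1.17.8 of data.table), lmFit and eBayes with a prior proportion of 0.01, with no covariate, since design, slide and software go with strain. Large meant a log2 difference of at least 2 (4-fold). On simulated data for this comparison over 27862 probes, 87% of changes of log2 1 and 96% of changes of log2 2 were recovered, with 4 false calls. The simulation changed 100 probes at each size, drew independent noise for each probe and held no effect of design, slide or software. Its false calls therefore do not measure calls that come from these. The number of arrays limits the precision. Named were the 15 genes per direction with the largest difference among those called, without overlap and well above background on all 14 arrays, the 12 on-off genes per direction with the largest bound, and from each of 26 lists the 4 members with the largest difference and any large or on-off member. Genes without a symbol of their own were counted only, and other genes were named for their role with their values known. Some of these results are not reported here. The members and lists were chosen with earlier results of these data known. Alternatives were another scaling, normexp background correction (offset 50), other filters, adjusted p under 0.05, slide as a random block, the replicate number as a block, leaving out each array, the authors' processed values and GC centring. The C57BL6 hypothalamus and BALB frontal cortex arrays were mapped to the distribution of the 14 arrays and entered no test.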

Additional observations from a re-analysis of the deposited data

Results flagged for a closer look

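Values of an array far from the other 6 of its strain by Dixon's test (critical value 0.568 for 7 arrays) were found in 41 of 382 groups tested, where chance gives about 1 in 20, and 22 of the 41 were at BALB array 1. Levels below are log2 intensities of that array. BALB array 1 had 90.1% of its probes well above background, and no other array of its strain had over 71.3%.

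On BALB array 1 the level was the highest of the 7 for H2-Bl (7.01), Sik1 (7.70), Mical3 (6.78), Gbp3 (9.82), Ifi44 (8.06), Per1 (11.78), Hsph1 (15.88), Agrp (9.61), H2-K1 (13.29), Psmb8 (10.32), Psmb9 (10.22), Parp9 (8.03) and Sp100 (8.23). On the same array it was the lowest for Tmem143 (2.78), Artn (2.03), Lrrc2 (6.94), Slc5a7 (6.09), Tbr1 (3.57), Neurod1 (2.82), Tek (6.47) and Trim30a (3.60).

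BALB array 2 was lowest for Ttc8 (10.15), S100b (15.38) and Hcrt (15.00) and highest for Alas2 (13.07), Cd79b (6.83) and Arntl (10.37). BALB array 5 was lowest for Cga (4.91) and BALB array 6 highest for Clock (10.33).

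Among the CBA arrays, array 7 was lowest for Nab2 (9.03), Adora2a (10.09) and Cd79a (2.29) and highest for Aox1 (6.25) and Slco1a4 (7.99). Array 4 was highest for Pdgfd (4.45) and Ifi44 (3.71), and array 6 was highest for Zfp933 (5.75) and lowest for Folr1 (7.31). The lowest CBA values of Olig1 (13.32) and Per1 (12.47) were on arrays 1 and 2.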

How the results depend on the processing

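The counts of genes with B above 0 at 2 to 3 months stayed within 1.5 times the reported ones under every alternative run, from 6401 (GC centring) to 9773 (adjusted p under 0.05) in CBA and from 4843 (well above background on all arrays) to 7170 (adjusted p under 0.05) in BALB. Large differences numbered 267 in CBA and 659 in BALB with normexp background correction, 656 and 1015 among probes well above background on all arrays, where fewer genes were tested, and 345 and 737 with the authors' processed values. Apart from the smaller number tested, the cause was not tested. With 1 array left out the on-off genes in CBA ran from 45 to 139, the highest without BALB array 1. After GC centring, chosen after seeing the data, the sign turned for Artn (-0.029), Col23a1 (-0.018), Cspg4 (-0.24), Folr1 (-0.34), Nkg7 (-0.43), Npy (-0.57), Pomc (-0.84), Hcrt (-0.73), Avp (-1.62), H2-D1 (-0.74) and Irf7 (-0.58). The difference of Prkcd ran from -0.57 to 0.11 with 1 array left out, the last without BALB array 5. Over 189 named genes, 4047 values kept direction and side of the threshold, 197 were no longer called, 40 became called and 12 turned. With the replicate number as a block 6751 genes were called higher in CBA and 5602 higher in BALB. The numbers share no animal, their correlations ran from -0.14 to 0.11, and 0 of 7 arrays correlated best with their own number, so they were not taken as pairs. Signal over background limited the dim genes. A bound is given for on-off genes and for named genes called with 1 or 2 arrays of a strain well above background, the latter chosen after seeing the data.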
